A study of Mus musculus with 8 samples.

Results

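Glucocorticoid-responsive genes and metallothionein genes were followed in the hindlimb muscle of Eif6+/- mice and wild-type (WT) mice. The set held 9 genes, *Nr3c1*, *Fkbp5*, *Tsc22d3*, *Zbtb16*, *Klf15*, *Sgk1*, *Cdkn1a*, *Mt1* and *Mt2*, chosen by name with earlier results of these data known. They were found on the array through the RefSeq accession of their probes, out of 20660 genes that could be named in this way. All 9 were well above background in *gastrocnemius* and in *tibialis anterior* (TA), where 12601 and 12375 genes could be tested. A gene was read by its brightest probe.

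The study compared 4 mice heterozygous for a germline loss of *Eif6*, a factor that binds the large ribosomal subunit, with 4 WT mice. By the methods they were male C57BL6 littermates, aged 8 to 16 weeks. Each of 8 Agilent arrays, 4 for each muscle, was hybridised with 1 Eif6+/- mouse and 1 WT mouse, paired at random and numbered as pairs 1 to 4 in each muscle, and values are log2 ratios of Eif6+/- over WT. The labels put Eif6+/- RNA in Cy5 and WT RNA in Cy3 on every array, while the methods name Cy3 alone. Without a dye swap, an effect of genotype and one of dye cannot be told apart. A single slide carried the 8 arrays, and since each muscle filled its own row of that slide, muscle and row cannot be told apart. The labels do not say whether a pair number stands for the same mice in both muscles. No spot was saturated, and the share of probes well above background ran from 38.7% to 48.6% over arrays and dyes. With 4 arrays per muscle every mean is imprecise.

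Glucocorticoids act through the receptor encoded by *Nr3c1*, which is held in the cytoplasm by heat shock chaperones and moves to the nucleus when it binds hormone. In skeletal muscle, hormone excess lowers protein synthesis and raises protein breakdown, and the genes induced early include regulators of transcription, a co-chaperone that lowers the receptor's affinity for hormone, and signalling kinases. Metallothioneins are small cysteine-rich proteins that bind zinc and copper, and their genes respond both to metals, through the transcription factor MTF1, and to glucocorticoids.

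The targeted gene was examined first. The log2 ratio of *Eif6* was −0.97, −1.14, −0.88 and −1.06 in *gastrocnemius* pairs 1 to 4 and −1.22, −1.03, −0.96 and −0.80 in TA pairs 1 to 4. It was below 0 on all 8 arrays. The mean was −1.01 ± 0.11 (SD, n = 4) in *gastrocnemius* and −1.002 ± 0.17 (SD, n = 4) in TA, with adjusted p = 0.0201 and 0.0113 by limma. Whether the probe lies inside the inactivated stretch could not be seen from the files.

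Of the 9 genes, 2 differed between the genotypes in *gastrocnemius* (limma, Benjamini-Hochberg adjusted p under 0.1 over all probes tested), *Klf15* and *Sgk1*, both higher in Eif6+/- muscle. Among all genes tested in that muscle 15.8% were called, 1294 of them higher (10.3%) and 695 lower (5.52%). Without pair 3 or pair 4 limma called 0 genes and 0 members in *gastrocnemius*, with 2447 and 2668 genes at an unadjusted p under 0.05. In TA 3 of the 9 were called, *Klf15* higher and *Zbtb16* and *Cdkn1a* lower, beside 16.2% of all genes. The TA calls divided into 1091 higher (8.82%) and 916 lower (7.4%), and into 1366 higher and 748 lower when quantile normalization was left out. Without pair 1 limma called 0 genes in TA, with 2192 at an unadjusted p under 0.05, and without pair 2 or 3 it called 571 and 1158. The members called in TA were then 0, 0 and 1 without pairs 1, 2 and 3, and 1 without pair 4. With so few genes, neither count stands apart from these shares. In the test of *gastrocnemius* minus TA, limma called 0 of the 9 and 0% of all genes. Before adjustment, p was under 0.05 for 1 member and 1034 genes, and without pair 2 the test called 7 genes. In the test across pair numbers, limma called 0 of the 9 beside 0.0492% of all genes, and the unadjusted p was under 0.05 for 2 members and 465 genes. Without pair 3 it called 0 genes, with 566 at an unadjusted p under 0.05.

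**Figure D1:**
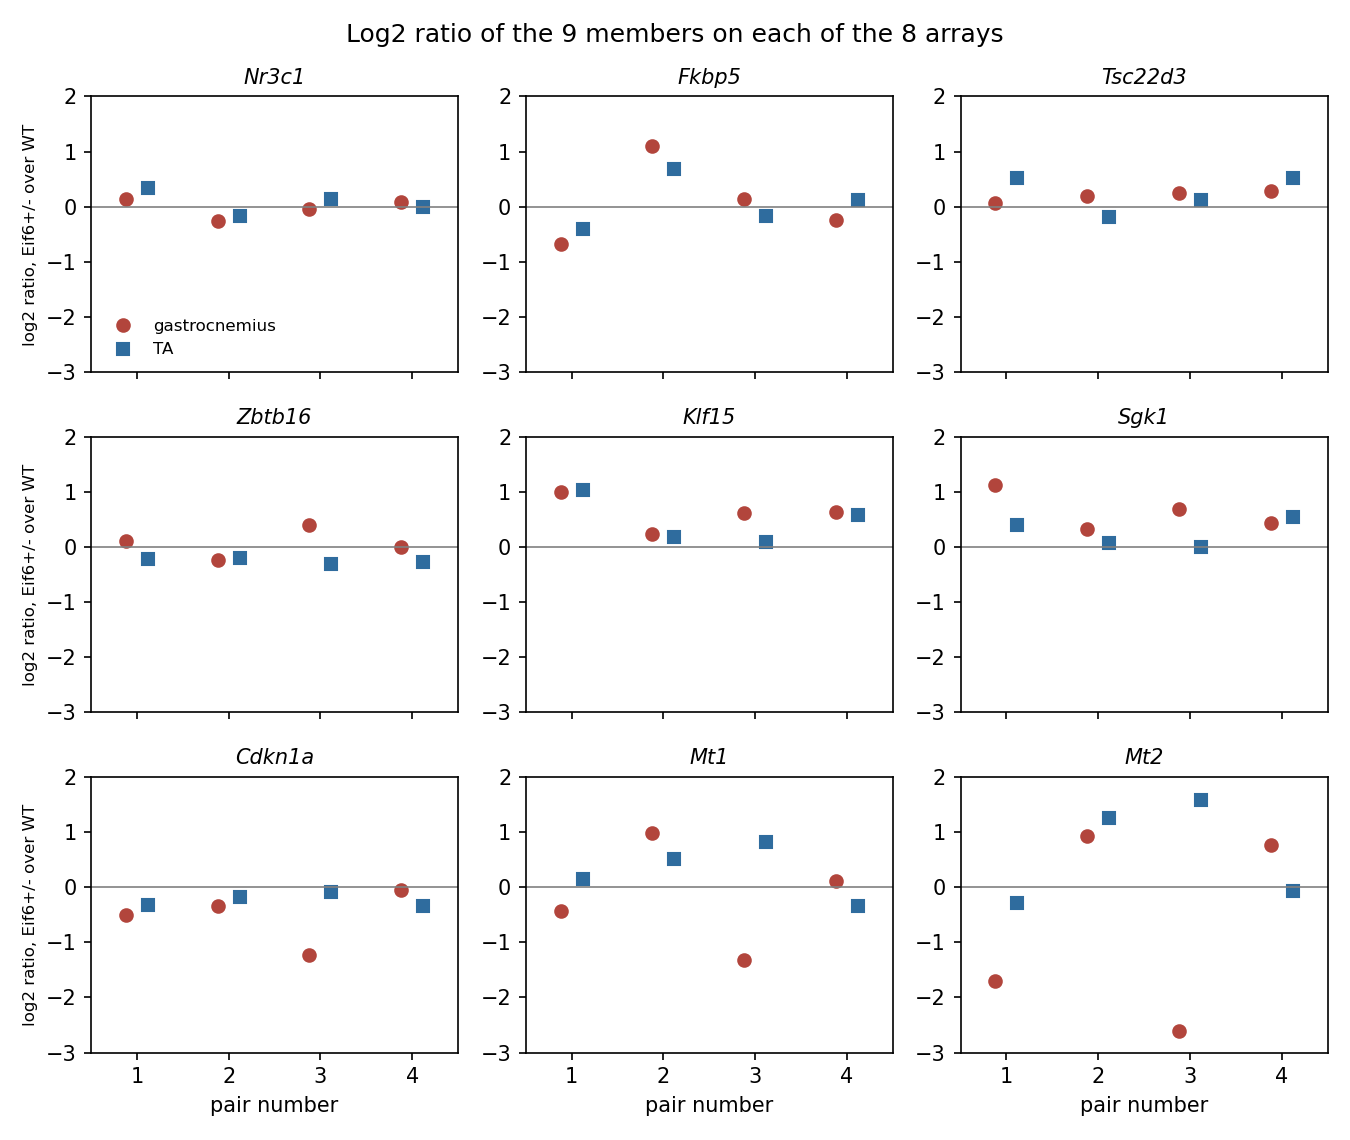
Log2 ratio (vertical axis) of each of the 9 genes by pair number (horizontal axis), with *gastrocnemius* as circles and TA as squares. *Klf15* lay above 0 on all 8 arrays and *Cdkn1a* below 0 on all 8, while *Mt2* ran from −2.61 to 1.58.

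**Figure D2:**
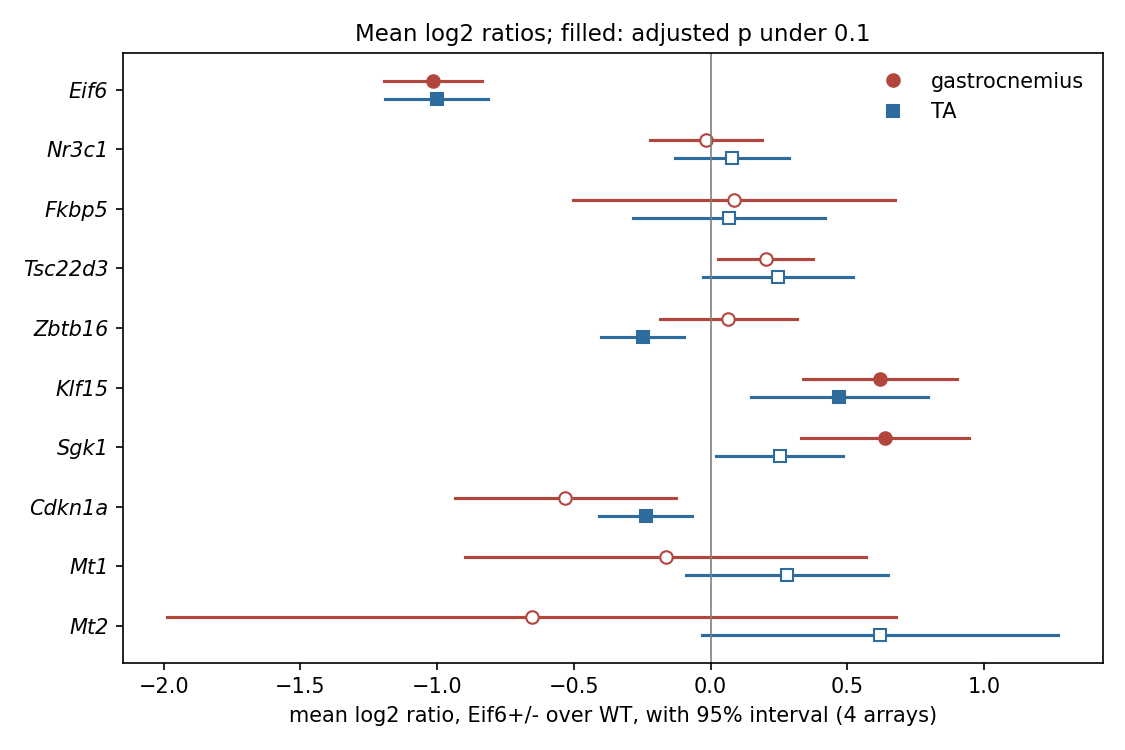
Mean log2 ratio over 4 arrays with its 95% interval for *Eif6* and the 9 genes in *gastrocnemius* (circles) and TA (squares). Filled symbols have an adjusted p under 0.1, and the interval of *Mt2* in *gastrocnemius* was the widest, from −1.99 to 0.68.

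The receptor gene came first. *Nr3c1* had log2 ratios of 0.15, −0.25, −0.05 and 0.08 in *gastrocnemius* pairs 1 to 4. In TA they were 0.34, −0.16, 0.15 and −0.01. Neither muscle had one sign throughout, and the mean was −0.02 ± 0.18 (SD, n = 4; 95% interval −0.22 to 0.19) in *gastrocnemius* and 0.08 ± 0.22 (SD, n = 4; 95% interval −0.13 to 0.29) in TA. The adjusted p was 0.928 and 0.607. The SD between pairs was larger than that of 49.9% of genes in *gastrocnemius* and of 74.5% in TA. A dimmer probe of the same gene ranged from −0.49 to 0.46 in *gastrocnemius* and from −0.07 to 0.28 in TA and was not called either.

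*Fkbp5* encodes the co-chaperone that dampens the receptor and is itself induced by it. Its log2 ratio was −0.68, 1.11, 0.14 and −0.23 in *gastrocnemius* pairs 1 to 4 and −0.39, 0.69, −0.16 and 0.13 in TA pairs 1 to 4. In both muscles pair 1 was the lowest and pair 2 the highest. The means were close to 0, 0.08 ± 0.76 (SD, n = 4) and 0.07 ± 0.47 (SD, n = 4), with adjusted p = 0.860 and 0.807. Between the pairs the gene varied more than most, with 98.6% of genes in *gastrocnemius* and 96.8% in TA having a smaller SD. In the test across pair numbers *Fkbp5* had an unadjusted p of 0.00131, which did not hold after adjustment over all probes (adjusted p = 0.474). The normalized log2 intensity in the WT channel was 9.98, 9.11, 10.01 and 9.74 in *gastrocnemius* and 9.88, 9.30, 10.43 and 9.42 in TA. In this channel the array of pair 2 had the lowest level in each muscle. In the Eif6+/- channel the levels were 9.30, 10.22, 10.15 and 9.50 in *gastrocnemius* and 9.48, 9.99, 10.27 and 9.55 in TA. Here pair 1 was the lowest in each muscle, and the genotypes overlapped. Without pair 2 the mean turned to −0.26 in *gastrocnemius* and to −0.14 in TA.

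*Tsc22d3* encodes GILZ, a leucine zipper protein that carries part of the anti-inflammatory action of the hormone. Its log2 ratio was 0.06, 0.20, 0.25 and 0.29 in *gastrocnemius* and 0.52, −0.18, 0.12 and 0.52 in TA. It was above 0 on 7 of 8 arrays. In *gastrocnemius* the level ran from 13.04 to 13.22 in WT and from 13.28 to 13.42 in Eif6+/- muscle. How many of all genes have levels without overlap was not counted, so such a gap does not set a member apart. The mean of 0.20 ± 0.098 (SD, n = 4) in *gastrocnemius* and 0.25 ± 0.34 (SD, n = 4) in TA did not pass the test (adjusted p = 0.143 and 0.223). The TA mean was 0.15 without pair 1, 0.39 without pair 2 and 0.15 without pair 4. By SAM, the test named in the methods, the gene was called in *gastrocnemius*.

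*Zbtb16* encodes PLZF, a zinc finger repressor that responds strongly to the hormone in many tissues. In TA its log2 ratio was −0.22, −0.19, −0.31 and −0.27, and in *gastrocnemius* it was 0.11, −0.23, 0.39 and −0.01. The TA values lay within a narrow range below 0, and 3.95% of genes in that muscle had a smaller SD. The level in TA was 10.63 ± 0.044 (SD, n = 4) in WT and 10.38 ± 0.042 (SD, n = 4) in Eif6+/- muscle. The gene was lower in Eif6+/- TA by a log2 ratio of −0.25 (95% interval −0.40 to −0.097, adjusted p = 0.0632). In *gastrocnemius* the mean was 0.07 (95% interval −0.19 to 0.32, adjusted p = 0.735). The difference between the muscles of 0.31 had a 95% interval of 0.034 to 0.59 and an adjusted p of 0.624, and it was 0.18 without pair 3. The call in TA did not survive the loss of any 1 pair (adjusted p = 0.209, 0.142, 0.153 and 0.106 without pairs 1 to 4), while the log2 ratio stayed at −0.26, −0.27, −0.23 and −0.24. It was also lost with a normexp offset of 0 (0.122) and with the scanner software's processed signals (0.152), in a range of 0.0441 to 0.209 over all settings.

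*Klf15* encodes a Krüppel-like factor that directs amino acid breakdown and fuel use in muscle. In *gastrocnemius* pairs 1 to 4 its log2 ratio was 1.00, 0.24, 0.61 and 0.63, and in TA it was 1.02, 0.18, 0.10 and 0.58. Every array had the Eif6+/- mouse above its WT partner, and pair 1 had the largest ratio in both muscles. The mean was 0.62 ± 0.31 (SD, n = 4; 95% interval 0.34 to 0.90; 1.54-fold; adjusted p = 0.0383) in *gastrocnemius* and 0.47 ± 0.42 (SD, n = 4; 95% interval 0.15 to 0.79; 1.39-fold; adjusted p = 0.0829) in TA. The difference between the muscles was 0.15 (95% interval −0.32 to 0.62, adjusted p = 0.881), and without pair 3 it was 0.030. Across mice the levels overlapped, with a WT range of 7.47 to 8.38 in *gastrocnemius* against 8.08 to 9.02 in Eif6+/- muscle, and a WT range of 8.46 to 9.02 in TA against 8.56 to 9.60. In *gastrocnemius* the call was lost without pair 3 (log2 ratio 0.62, adjusted p = 0.144) and without pair 4 (0.62, adjusted p = 0.158), and adjusted p ran from 0.0360 to 0.158 over all settings. In TA it was lost without pair 1 (0.29, adjusted p = 0.275), pair 2 (0.57, adjusted p = 0.116) or pair 4 (0.43, adjusted p = 0.153), with a normexp offset of 0 (adjusted p = 0.129) and with processed signals (adjusted p = 0.142), in a range of 0.0751 to 0.275.

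*Sgk1* encodes a kinase related to Akt that is induced within minutes to hours of hormone exposure. The 250 bases upstream of one of its RefSeq starts are given because a pair of glucocorticoid response element arms in inverted repeat occurs there. The window lies at chr10:21993640-21993889 of GRCm38.p6 on the plus strand, and capitals mark AGAACA or its reverse complement.
Sgk1: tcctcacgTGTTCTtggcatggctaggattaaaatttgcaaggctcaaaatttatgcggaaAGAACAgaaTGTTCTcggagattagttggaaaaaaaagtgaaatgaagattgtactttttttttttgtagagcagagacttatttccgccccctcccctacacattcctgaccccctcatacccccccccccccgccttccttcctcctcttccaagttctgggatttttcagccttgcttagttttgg
The arm AGAACA, searched on both strands, occurred 3 times in this window, and 2 of these matches formed an inverted repeat with 3 bases between them. Of all 32851 RefSeq promoter windows of 250 bases, 16.1% held the arm and 3 windows (0.00913%) held the repeat. The other 5 windows of *Sgk1* did not hold the repeat. A match describes the letters of the window and is no evidence of binding.

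The log2 ratio of *Sgk1* was 1.12, 0.32, 0.68 and 0.43 in *gastrocnemius* pairs 1 to 4. In TA it was 0.39, 0.07, −0.01 and 0.55. In *gastrocnemius* the level was 12.30 to 12.65 in Eif6+/- mice and 11.53 to 12.05 in WT mice, while in TA the ranges overlapped. The share of all genes with a gap between the genotypes was not counted. The mean was 0.64 ± 0.35 (SD, n = 4; 95% interval 0.33 to 0.95; 1.56-fold; adjusted p = 0.0428) in *gastrocnemius* and 0.25 ± 0.26 (SD, n = 4; 95% interval 0.020 to 0.485; adjusted p = 0.155) in TA. The difference between the muscles was 0.39 (95% interval −0.019 to 0.79, adjusted p = 0.642), so the call in one muscle alone does not show that they differ. Without pair 4 the TA mean was 0.15. The *gastrocnemius* call was lost without pair 3 (0.62, adjusted p = 0.161) and without pair 4 (0.71, adjusted p = 0.147), in a range of 0.0408 to 0.161 over all settings.

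The *gastrocnemius* array of pair 1, where *Klf15* and *Sgk1* had their largest ratios in that muscle, also stood apart in markers of slow and oxidative fibres. There the log2 ratio was 4.95 for *Myh7*, 3.91 for *Myh2*, 2.64 for *Tnnt1* and 1.93 for *Mb*, while in pairs 2 to 4 these genes lay between −1.79 and 1.42. Of the 13 muscle fibre markers 3 were called in *gastrocnemius*, 1 higher and 2 lower, beside 15.8% of all genes, and *Pvalb* was the brightest. All 13 were well above background in both channels on every array. The log2 of their summed level in *gastrocnemius* pairs 1 to 4 was 20.05, 20.20, 20.03 and 20.34 in WT and 20.28, 20.12, 20.11 and 20.28 in Eif6+/- muscle. Without pair 1 the *gastrocnemius* calls stood, with 0.49 for *Klf15* (adjusted p = 0.0519, in a range of 0.0360 to 0.158) and 0.48 for *Sgk1* (adjusted p = 0.0501, in a range of 0.0408 to 0.161). The part of fibre composition in the values of *Klf15* and *Sgk1* was not tested.

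*Cdkn1a* encodes p21, an inhibitor of cyclin-dependent kinases that is a target of p53 and of the glucocorticoid receptor. Its log2 ratio was −0.50, −0.34, −1.23 and −0.05 in *gastrocnemius* and −0.33, −0.18, −0.09 and −0.34 in TA. All 8 values were below 0, and pair 3 of *gastrocnemius* was the lowest. The mean was −0.24 ± 0.12 (SD, n = 4; 95% interval −0.41 to −0.068; adjusted p = 0.0896) in TA and −0.53 ± 0.50 (SD, n = 4; 95% interval −0.94 to −0.13; adjusted p = 0.109) in *gastrocnemius*. The TA call was lost without any 1 pair (adjusted p = 0.301, 0.177, 0.108 and 0.178 without pairs 1 to 4) and under 4 of the other settings, among them the deposited ratios (adjusted p = 0.112), in a range of 0.0725 to 0.301. In *gastrocnemius* limma called the gene only without background correction (−0.57, adjusted p = 0.0991, in a range up to 0.248 over all settings), and SAM called it as well. Without pair 3 the *gastrocnemius* mean was −0.30, and with processed signals the TA mean was −0.38. The WT level in *gastrocnemius* was 8.48, 7.88, 8.77 and 8.03 in pairs 1 to 4, and the Eif6+/- level was 7.97, 7.54, 7.55 and 7.97. The WT mice of pairs 1 and 3 were the highest of all. A second probe of *Cdkn1a* was not well above background on any array.

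*Mt1* and *Mt2*, the metallothionein genes expressed in most tissues, lie side by side on chromosome 8. Their windows of 250 bases before the RefSeq start are shown because both genes varied together, with the metal response element core, TGCACNC or TGCGCNC on either strand, in capitals. Both come from the plus strand of GRCm38.p6, at chr8:94178839-94179088 for *Mt1* and chr8:94172368-94172617 for *Mt2*.
Mt1: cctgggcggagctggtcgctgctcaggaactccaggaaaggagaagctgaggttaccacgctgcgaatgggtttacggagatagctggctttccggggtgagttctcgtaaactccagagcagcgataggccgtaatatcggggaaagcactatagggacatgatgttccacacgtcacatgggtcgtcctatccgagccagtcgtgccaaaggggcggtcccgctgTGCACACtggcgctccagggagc
Mt2: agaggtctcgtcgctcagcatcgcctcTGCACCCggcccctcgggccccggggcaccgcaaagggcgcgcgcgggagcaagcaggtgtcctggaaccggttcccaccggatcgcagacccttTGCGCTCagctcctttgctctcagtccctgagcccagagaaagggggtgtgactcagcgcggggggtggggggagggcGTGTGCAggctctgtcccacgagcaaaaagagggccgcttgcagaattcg
Within these 250 bases the core occurred 3 times before *Mt2*, once before *Mt1* and once before *Klf15*. Bases outside the windows were not searched, so cores nearer to another start of a gene would be missed. In all windows together it occurred at least once in 21.4% and at least 2 times in 5.17%. Promoter windows were matched for 7 of the 9 genes, 15 windows in all, and *Zbtb16* and *Nr3c1* are named only. The glucocorticoid arm occurred before *Tsc22d3* in 1 window and before *Sgk1* in 3, and no window held both motifs.

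The log2 ratio of *Mt2* was −1.70, 0.92, −2.61 and 0.77 in *gastrocnemius* pairs 1 to 4. In TA it was −0.29, 1.25, 1.58 and −0.07. *Mt1* gave −0.43, 0.97, −1.32 and 0.11 in *gastrocnemius* and 0.15, 0.51, 0.81 and −0.35 in TA. The genes had the same sign on 7 of 8 arrays, and in pair 3 both were far below 0 in *gastrocnemius* and far above 0 in TA. None of the means passed the limma test, while SAM called *Mt2* in TA. For *Mt2* the mean was −0.65 ± 1.77 (SD, n = 4; adjusted p = 0.505) in *gastrocnemius* and 0.62 ± 0.94 (SD, n = 4; adjusted p = 0.200) in TA. For *Mt1* it was −0.16 ± 0.96 (SD, n = 4; adjusted p = 0.774) and 0.28 ± 0.50 (SD, n = 4; adjusted p = 0.296). The difference between the muscles was −1.27 for *Mt2* (95% interval −2.93 to 0.39, adjusted p = 0.685), and it was −0.44 for *Mt1* (95% interval −1.35 to 0.46, adjusted p = 0.797).

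The spread itself set these genes apart from most others. In *gastrocnemius* 9 of 12601 genes had a larger SD than *Mt2* and 89 a larger SD than *Mt1*, and in TA 64 and 329 of 12375 did. In *gastrocnemius* the spread lay in the WT channel. The WT level of *Mt2* was 13.05, 10.01, 13.58 and 10.57 in pairs 1 to 4, and the Eif6+/- level was 11.36, 10.93, 10.97 and 11.34. For *Mt1* the WT level was 12.67, 11.17, 13.44 and 12.02, while the 4 Eif6+/- mice lay between 12.12 and 12.25. The WT mice of pairs 1 and 3 were thus the highest for *Mt1* and *Mt2*, as for *Cdkn1a*. In TA the highest *Mt2* level was in the Eif6+/- mouse of pair 3 (12.54), and the other 7 levels lay between 9.53 and 10.96. Without pair 3 the mean of *Mt2* was −0.0018 in *gastrocnemius* and 0.30 in TA, and in *gastrocnemius* that of *Mt1* was 0.22 (adjusted p = 0.690, in a range of 0.232 to 0.914 over all settings), on the other side of 0. Leaving out pair 1, 2 or 4 gave an *Mt2* mean of −0.31, −1.18 and −1.13 in *gastrocnemius*. In TA the *Mt2* mean was then 0.92, 0.41 and 0.85. Without pair 4 *Mt1* passed in TA (0.49, adjusted p = 0.0624), and without pair 3 its TA mean was 0.10 (adjusted p = 0.712), the ends of the range over all settings. The difference between the muscles without pair 3 was −0.30 for *Mt2* and 0.12 for *Mt1*. Without pair 4 this difference was −1.98 for *Mt2* and −0.75 for *Mt1*.

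**Figure D3:**
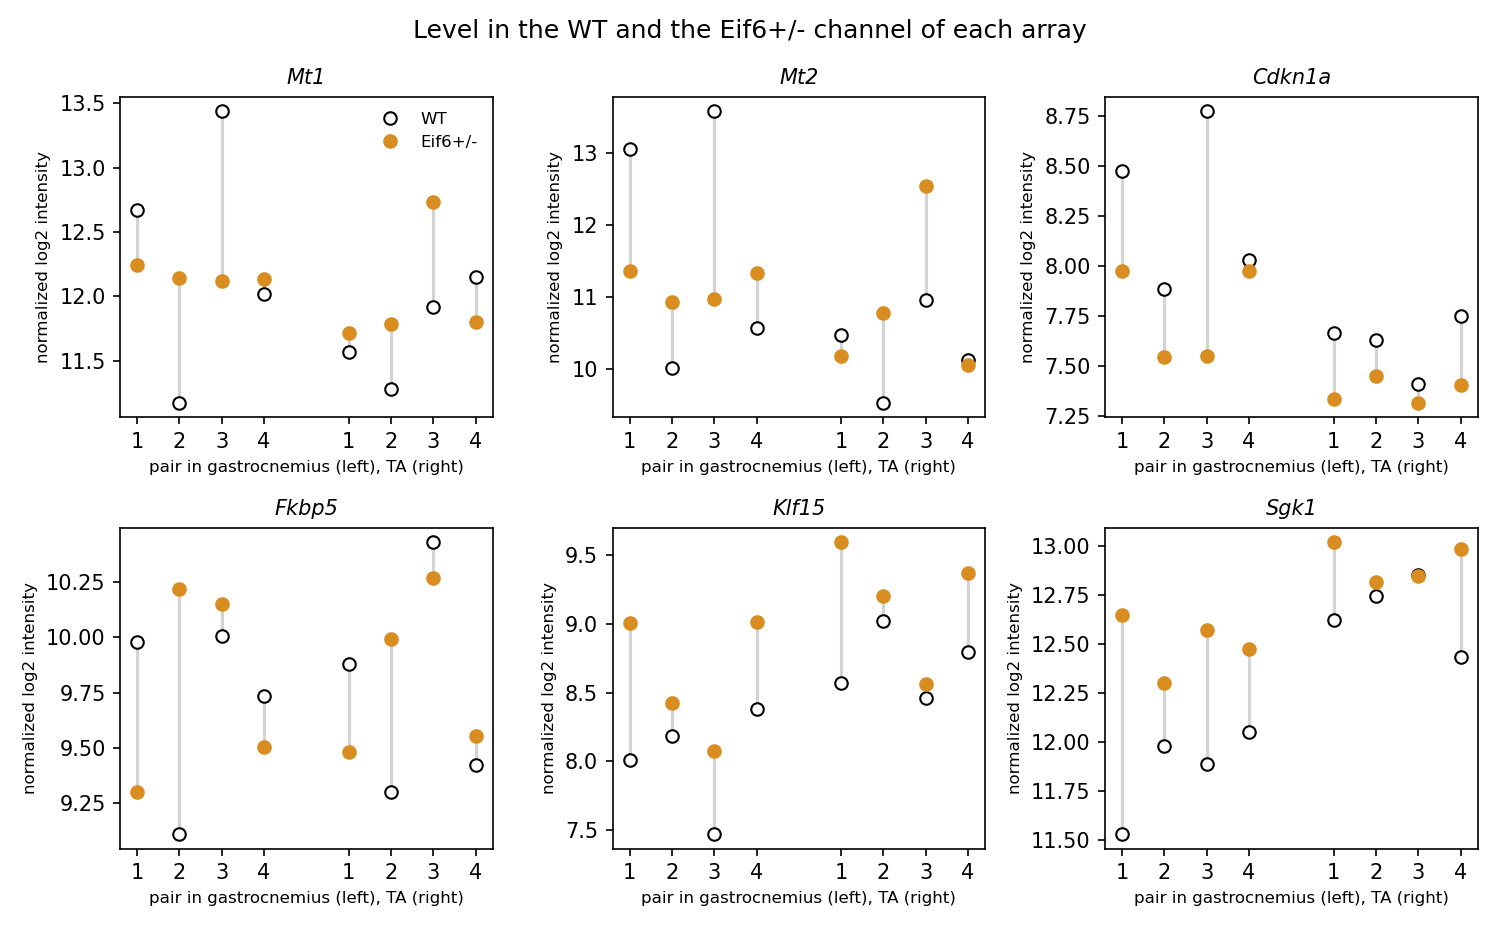
Normalized log2 intensity (vertical axis) in the WT channel (open circles) and the Eif6+/- channel (filled circles) of each array for 6 genes, with the pairs of *gastrocnemius* on the left and of TA on the right of each panel; grey lines join the mice of a pair. For *Mt1*, *Mt2* and *Cdkn1a* in *gastrocnemius* the WT mice of pairs 1 and 3 were the highest, with *Mt2* at 13.05 and 13.58.

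Over the 8 arrays, 5 of the 9 genes spanned a log2 ratio of 1 or more, and for these the closest genes by root mean square difference of the log2 ratio were sought among 12194 genes. Closest to *Mt2* were *Lgals3* (0.51), *Ctss* (0.53) and *Timp1* (0.55). *Lgals3* encodes galectin-3 and *Ctss* cathepsin S, both abundant in macrophages, and *Timp1* encodes an inhibitor of metalloproteinases. *Lgals3* had −2.72, 0.66, −2.71 and 0.094 in *gastrocnemius* pairs 1 to 4, and its WT level was 11.90 and 12.04 in pairs 1 and 3 against 8.80 and 8.95 in pairs 2 and 4. Closest to *Mt1* were *Sphk1* (0.29), *Plac8* (0.30) and *Cgref1* (0.31), and closest to *Cdkn1a* were *Ctsz* (0.14), *Itm2c* (0.16) and *Ccdc166* (0.16). *Fkbp5* was most like *Kcnj12* (0.20), which encodes an inward rectifier potassium channel, then *Ly6g6e* (0.23) and *Actr3b* (0.24). *Sgk1* was most like *Foxo6* (0.17), *Uaca* (0.18) and *Rai1* (0.18). These genes were picked by their values on the same 8 arrays, so their directions follow from the choice and no test of them is given.

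The median leukocyte marker was low in *gastrocnemius* pairs 1 and 3, where *Mt2* was low, but not every marker followed *Mt2*. The median log2 ratio of the 4 of 8 markers that could be tested was −1.01, −0.070, −1.55 and −0.040 in *gastrocnemius* pairs 1 to 4, and that of the 6 tested in TA was −0.029, −0.17, 0.12 and −0.19. The summed WT intensity of the 7 markers with a named probe was 12.26, 12.32, 13.14 and 11.96 on the log2 scale in *gastrocnemius*, and the summed Eif6+/- intensity was 11.79, 11.92, 11.81 and 11.79. By this sum pair 3 stood out and pair 1 did not, although 6 of the 7 markers were lower by over 0.5 in each of the 2 pairs. *Itgam*, the brightest marker, had 0.35, −0.34, −0.30 and 0.037 in *gastrocnemius* pairs 1 to 4. *Ptprc*, the leukocyte common antigen, was not well above background on every *gastrocnemius* array. *Cd74* was lower in *gastrocnemius* (log2 ratio −1.09, adjusted p = 0.0400) and *S100a9* in TA (−1.61, adjusted p = 0.0353). In *gastrocnemius* *Cd74* was below 0 in every pair (−0.79, −0.90, −2.03 and −0.62 in pairs 1 to 4). *S100a9* was −2.80 and −2.26 in TA pairs 1 and 3, where *Mt2* was −0.29 and 1.58. Connective tissue markers also moved in pair 3, with a median of −0.34, 0.20, −1.03 and 0.022 in *gastrocnemius* and 0.24, −0.70, 1.38 and −0.30 in TA, and 0 of 6 were called in either muscle by limma, beside 15.8% and 16.2% of all genes; *Col1a2* was the brightest. The summed intensity of these 6 was 18.12 in WT and 16.79 in Eif6+/- *gastrocnemius* of pair 3, and 15.30 and 17.41 in TA of pair 3. The part of these cells in the values of *Mt1*, *Mt2* and *Cdkn1a* was not tested, and in whole muscle fewer cells of a type and less RNA per cell cannot be told apart.

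**Figure D4:**
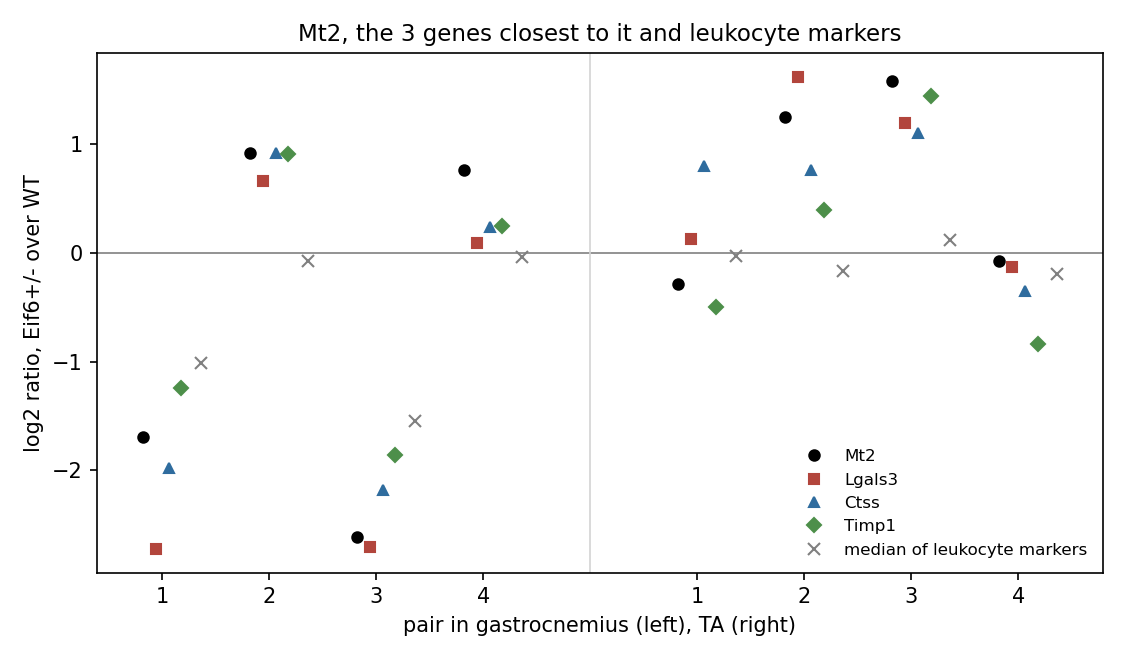
Log2 ratio (vertical axis) of *Mt2*, of the 3 genes with the smallest root mean square difference from it and of the median leukocyte marker, by pair in *gastrocnemius* (left) and TA (right). In *gastrocnemius* pairs 1 and 3 all 5 series lie near −1 or below, with the leukocyte median at −1.01 and −1.55.

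Other genes of the hormone pathway were described from lists of known members. Since the lists were chosen with earlier results of these data known, their counts are not an independent test. Of 30 other glucocorticoid-induced genes, 27 could be tested in each muscle. In *gastrocnemius* 7 were higher and 0 lower, beside 10.3% and 5.52% of all genes, and in TA 5 were higher and 1 lower, beside 8.82% and 7.4% (limma, adjusted p under 0.1). The list's median log2 ratio was 0.058 in *gastrocnemius* and −0.0083 in TA, against 0.023 and 0.017 over all genes. *Dusp1*, a phosphatase that switches off MAP kinases, rose by 0.70 in *gastrocnemius* (adjusted p = 0.0416) and by 0.98 in TA (adjusted p = 0.0369). *Ddit4*, an inhibitor of mTORC1 signalling, rose by 0.56 (adjusted p = 0.0678) and 0.46 (adjusted p = 0.0705), although it was slightly below 0 in pair 3 of both muscles. The clock gene *Per1* rose by 0.54 (adjusted p = 0.0666) and 0.60 (adjusted p = 0.0726). *Dusp1*, *Per1* and *Gadd45g* were above 0 on all 8 arrays. *Dusp1* and *Per1*, like *Klf15*, had their largest ratio in pair 1 of each muscle, with 1.08 and 1.58 for *Dusp1* and 1.09 and 1.38 for *Per1*. *Cebpb* was higher in *gastrocnemius* (0.55, adjusted p = 0.0404), and *Mstn*, which encodes myostatin, was higher in TA (0.79, adjusted p = 0.0247). *Gadd45g* rose by 0.34 in *gastrocnemius* (adjusted p = 0.0436) and by 0.40 in TA (adjusted p = 0.0405). *Errfi1* (0.39, adjusted p = 0.0934) and *Map3k6* (0.28, adjusted p = 0.0956) were higher in *gastrocnemius*, and *Foxo1* was lower in TA (−0.25, adjusted p = 0.0721), each on all 4 arrays. The ubiquitin ligase genes of muscle atrophy, *Fbxo32* and *Trim63*, were not called, with −0.14 and −0.029 in *gastrocnemius* (adjusted p = 0.265 and 0.913) and −0.18 and −0.13 in TA (adjusted p = 0.555 and 0.567).

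**Figure D5:**
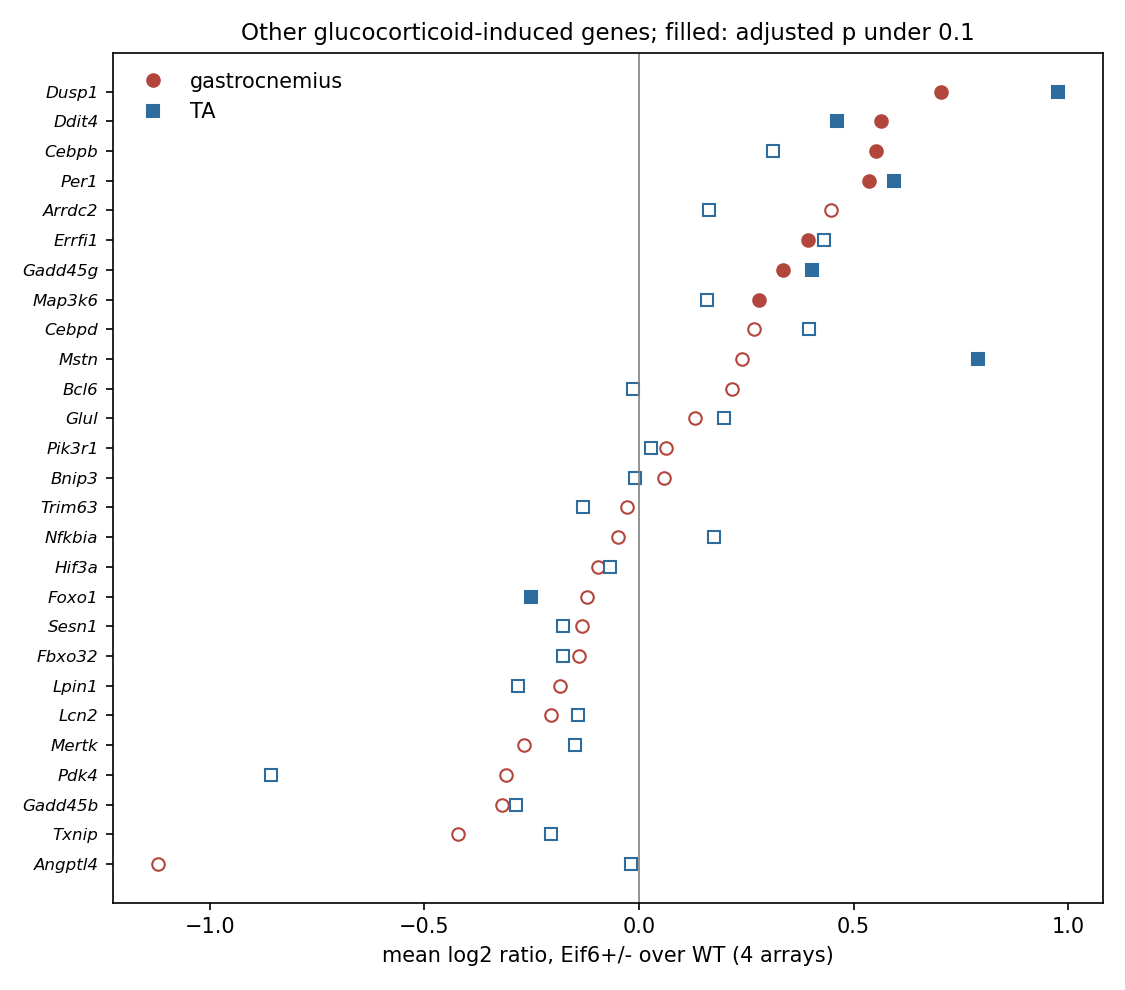
Mean log2 ratio over 4 arrays (horizontal axis) of the 27 other glucocorticoid-induced genes that could be tested, in *gastrocnemius* (circles) and TA (squares), in the order of the *gastrocnemius* value. Filled symbols have an adjusted p under 0.1, and *Dusp1* was at the top with 0.70 and 0.98.

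Of 15 genes of the receptor machinery, 14 were tested, and in each muscle 2 were higher and 3 lower, where 15.8% and 16.2% of all genes were called. The co-chaperone genes *Stip1* (−0.40, adjusted p = 0.0386, in *gastrocnemius* and −0.47, adjusted p = 0.0395, in TA) and *Ptges3* (−0.39, adjusted p = 0.0368, and −0.21, adjusted p = 0.0875) were lower in both. The corepressor gene *Ncor1* was lower too, with −0.37 (adjusted p = 0.0643) and −0.36 (adjusted p = 0.0969). *Hspa8*, the constitutive Hsp70 gene, was higher, with 0.27 (adjusted p = 0.0905) and 0.34 (adjusted p = 0.0412). Like *Stip1* and *Ptges3*, it had one sign on all 8 arrays, while *Ncor1* was below 0 on 7 of 8. *Ncoa2* was higher in *gastrocnemius* (0.29, adjusted p = 0.0736) and *Dnaja1* in TA (0.39, adjusted p = 0.0667). Of 19 zinc and metal handling genes, 18 were tested in *gastrocnemius* and 0 called by limma, and 17 were tested in TA, where the zinc transporter gene *Slc30a4* was higher (0.30, adjusted p = 0.0661). *Mtf1*, which encodes the metal sensor, had 0.00041 (adjusted p = 0.999) and −0.15 (adjusted p = 0.195). Of 16 p53 targets and partners, listed for *Cdkn1a*, 15 were tested, and *Bax* was lower in both muscles (−0.26, adjusted p = 0.0981, and −0.24, adjusted p = 0.0857) and *Trp53* in *gastrocnemius* (−0.38, adjusted p = 0.0748).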

How the data were processed

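The authors deposited scanner output with spot intensities that were not normalized, and a table of log2 ratios, which matched loess normalization of uncorrected intensities within arrays (r of 0.99996 or more; column medians between −0.00441 and 0.00375), so its scale, centring and direction are known. Median intensities were corrected with normexp (offset 50), normalized by loess within arrays and by quantiles across channels (limma 3.58.1, R 4.3.3). Control and outlier spots were left out and spots of a probe averaged. Testing took in probes that on each of a muscle's 4 arrays were well above background in one dye or both (23790 and 23383 probes). Of 28685 probes with a RefSeq accession, 27235 were named through a GRCm38.p6 gene table. Ratios were tested with lmFit and eBayes, with Benjamini-Hochberg adjustment over the probes tested and a threshold of 0.1; scripts were tested on simulated data. The members and lists were chosen with earlier results of these data known. Named were all members, the called genes of each list (of marker lists the 2 of largest log2 ratio per muscle), the brightest marker of each marker list and the 3 genes closest to each variable member; *Fbxo32*, *Trim63*, *Mtf1*, *Ptprc*, *Myh7*, *Myh2* and others named beyond this were chosen after their values were seen. A few called genes that this rule covers are not reported here. Alternatives were other normalization, background correction and filters, processed signals, deposited ratios, each array left out, SAM and the pair number as a block.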

Additional observations from a re-analysis of the deposited data

How the results depend on the processing

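Of the log2 ratios of the 9 genes in the 3 comparisons under the alternatives tested with limma, 269 kept their sign and their side of the threshold, 23 lost their call, 2 gained one and 12 changed sign. The probes read for *Klf15* and *Cdkn1a* were the dimmest of the 9, although they were well above background in both channels on every array. How far signal over background limits each gene was not compared. The genes called in *gastrocnemius* went from 1989 to 1203 with processed signals and to 3106 with SAM, and from 0 to 1871 with 1 pair left out (0 without pair 3 or 4, where 2447 and 2668 had an unadjusted p under 0.05). In TA they went from 2007 to 1190 with normexp offset 0 and to 841 with processed signals, and from 0 to 1981 with 1 pair left out (0 without pair 1, 571 without pair 2, 1158 without pair 3). SAM called 4 members in *gastrocnemius*, *Tsc22d3* and *Cdkn1a* in addition, and in TA it called *Mt2* in addition. With limma, called members numbered 0 to 2 in *gastrocnemius* with 1 pair left out; in TA they numbered 0 with normexp offset 0, 0 with processed signals and 0 to 1 with 1 pair left out. The difference between muscles called 1 gene with processed signals, 1 without a filter and 0 to 7 with 1 pair left out. The test across pair numbers, 6 genes, called 2 with processed signals, 2 with the filter on both channels and 0 to 5 with 1 pair left out. Fewer arrays are in the fits with a pair left out; otherwise the cause was not tested.

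With 1 pair left out, signs turned within these ranges: *Nr3c1* −0.071 to 0.061 in *gastrocnemius* and −0.0086 to 0.16 in TA, *Fkbp5* −0.26 to 0.34 and −0.14 to 0.22, *Zbtb16* −0.044 to 0.16 and *Mt1* −0.54 to 0.22 in *gastrocnemius*, and for the difference between muscles *Fkbp5* −0.11 to 0.14, *Tsc22d3* −0.19 to 0.093 and *Mt1* −0.75 to 0.12. The difference for *Fkbp5* was −0.0079 with the deposited ratios. *Mt1* passed in TA without pair 4 (0.49, adjusted p = 0.0624, in a range up to 0.712).

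With the pair number as a replicate block, limma called 0 genes and 0 of the 9 for the difference between muscles, where 867 genes had an unadjusted p under 0.05. Deviations from the muscle mean correlated over 12194 genes at −0.12, −0.005, −0.36 and 0.10 between arrays of the same number, for pairs 1 to 4, so the pairing was not borne out over all genes, and no array correlated best with its own number.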

Other observations

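Immediate early genes and clock genes, which glucocorticoids also touch, gave the following values. Of 18 immediate early genes, 15 were tested, and in *gastrocnemius* 3 were higher and 1 lower, while limma called 0 in TA, beside 15.8% and 16.2% of all genes. *Klf4* was higher in *gastrocnemius* (0.66, adjusted p = 0.0588), as were *Nr4a1* (0.53, adjusted p = 0.0618) and *Maff* (0.43, adjusted p = 0.0489), and *Myc* was lower (−0.30, adjusted p = 0.0885). The median of the list was 0.59, −0.20, −0.19 and 0.36 in *gastrocnemius* pairs 1 to 4 and 0.45, −0.37, −0.032 and 0.32 in TA pairs 1 to 4, so that pairs 1 and 4 were above 0 and pairs 2 and 3 below 0 in both muscles. Of 15 clock genes, 13 were tested, with 3 higher and 3 lower in *gastrocnemius* and 3 higher and 2 lower in TA, beside the same shares. *Nr1d1* was lower in both muscles (−0.80, adjusted p = 0.0643, and −0.67, adjusted p = 0.0499), as were *Bhlhe41* (−0.47, adjusted p = 0.0487) and *Bhlhe40* (−0.35, adjusted p = 0.0643) in *gastrocnemius*. *Tef* (0.35, adjusted p = 0.0944, and 0.37, adjusted p = 0.0331), *Ciart* (0.36, adjusted p = 0.0853, and 0.49, adjusted p = 0.0145) and *Cry2* (0.35, adjusted p = 0.0516, and 0.50, adjusted p = 0.0539) were higher.

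The marker counts that follow stand beside 10.3% of all genes higher and 5.52% lower in *gastrocnemius*, and 8.82% higher and 7.4% lower in TA. Of 6 blood markers, 5 were tested in TA and 4 were lower, with *Hbb-bs* at −1.30 (adjusted p = 0.0184) and *Hba-a1*, the brightest, at −0.74 (adjusted p = 0.0269). Of 4 tested in *gastrocnemius*, *Hbb-bs* was lower (−0.59, adjusted p = 0.0985). Of 7 fat cell markers, 6 were tested, and 2 were lower in *gastrocnemius* (*Cfd* −0.89, adjusted p = 0.0760; *Adipoq* −0.64, adjusted p = 0.0991) and 3 higher in TA, among them *Retn* (0.65, adjusted p = 0.0744) and *Cidec* (0.60, adjusted p = 0.0721); *Fabp4* was the brightest. Of 13 muscle fibre markers, 1 was higher and 3 lower in TA. *Myh1* was higher (0.95, adjusted p = 0.0480) and *Atp2a1* lower (−0.75, adjusted p = 0.0611) in *gastrocnemius*, and in TA *Myh4* was higher (0.80, adjusted p = 0.0132) and *Tnnt1* lower (−0.90, adjusted p = 0.0240). Of 5 endothelial markers, 0 were called by limma in *gastrocnemius* and *Pecam1* was lower in TA (−0.32, adjusted p = 0.0665); *Vwf* was the brightest. Of 5 myelinated nerve markers, 0 were called in *gastrocnemius* and in TA *Mbp* was among the lower ones (−0.21, adjusted p = 0.0885); *Pmp22* was the brightest.

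Among the 6 genes past the threshold in the test across pair numbers, 1 is named here after its values were seen. *Slc25a25* had 2.17, 1.25, −0.014 and 1.23 in *gastrocnemius* pairs 1 to 4 and 2.35, 1.29, 0 and 1.38 in TA pairs 1 to 4 (adjusted p = 0.0150). The WT level of *Slc25a25* was 9.01, 9.02, 10.00 and 9.94 in *gastrocnemius* and 8.88, 8.93, 9.95 and 9.86 in TA. For this gene the values followed the pair number across the muscles, unlike those of *Mt1*, *Mt2* and *Cdkn1a*.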
